A study of Homo sapiens and Mus musculus with 18 samples.

Results

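For the transcription factor NF-kB, the RNA of 10 genes was followed, of 34505 gene identifiers in the human libraries. The 10 were 4 genes of its subunits (NFKB1, NFKB2, RELA and RELB), the inhibitor gene NFKBIA, and the response genes TNFAIP2, TNFAIP3, BIRC3, PTGS2 and ICAM1. They were listed by name and not by their measured values in a fit, but with earlier results of these data known. RNA was sequenced from human pancreatic cancer cells with more or less keratin 17. This protein, called K17 and encoded by KRT17, builds intermediate filaments in stratified epithelia. The 4 human groups, of 3 libraries each, were L3.6 cells with KRT17 knocked out by CRISPR-Cas9, wild-type L3.6 cells, PANC-1 cells over-expressing K17, and PANC-1 cells with an empty vector. L3.6 is an adenosquamous carcinoma line and PANC-1 a ductal adenocarcinoma line, both were grown in culture medium with serum, and no stimulus of NF-kB is named in the labels. The labels do not say whether the knockout or the K17 cells were single clones or pools, nor whether replicates were separate cultures. A difference between clones and an effect of K17 therefore cannot be told apart, and the p-values rest on the spread among these libraries alone, which may be technical. The mouse KPC groups of the series were not used here.

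NF-kB factors are dimers of Rel-family proteins held in the cytoplasm by inhibitors of the IkB family. Signals from tumour necrosis factor or interleukin-1 receptors activate a kinase complex that marks the inhibitor for degradation, and the freed dimers enter the nucleus and bind kappa B elements. Among the genes they induce are their own inhibitors, so that the response is self-limiting. In pancreatic carcinoma, NF-kB activity is known for its links to inflammation and survival. RNA levels of these genes do not measure that activity, and these libraries hold no values for protein or nuclear entry.

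Start windows of 300 bases, with 250 bases before and 50 after an annotated transcription start, were read from RefSeq (GRCh38.p14) for 9 of the 10 genes and gave 13 windows. They were searched on both strands for the 10-letter kappa B consensus GGGRNNYYCC, where R is A or G, Y is C or T and N any base. At least 1 match lay in a window of 5 of the 9 genes (NFKB1, NFKB2, NFKBIA, TNFAIP3 and BIRC3), against 13.25% of all 27305 genes in that table. By single windows, 11.27% of 35116 held a match. A match describes the letters only and is not evidence of binding. Windows are printed 5′ to 3′ on the strand of the gene for the inhibitor, for the 3 response and subunit genes with matches that the results below turn on, and for TNFAIP2, the gene with the largest change, which had none. Capitals mark matches, read on either strand. The regions, in that order, are chr14:35404700-35404999 on the minus strand, chr6:137867009-137867308, chr11:102317234-102317533, chr10:102394328-102394627 and chr14:103123211-103123510 on the plus strand.
NFKBIA: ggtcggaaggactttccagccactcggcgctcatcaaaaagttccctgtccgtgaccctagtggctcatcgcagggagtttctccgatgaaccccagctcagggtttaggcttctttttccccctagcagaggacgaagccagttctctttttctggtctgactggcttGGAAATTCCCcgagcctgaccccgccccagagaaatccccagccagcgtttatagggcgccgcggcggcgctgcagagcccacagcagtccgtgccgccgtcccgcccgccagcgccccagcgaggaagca
TNFAIP3: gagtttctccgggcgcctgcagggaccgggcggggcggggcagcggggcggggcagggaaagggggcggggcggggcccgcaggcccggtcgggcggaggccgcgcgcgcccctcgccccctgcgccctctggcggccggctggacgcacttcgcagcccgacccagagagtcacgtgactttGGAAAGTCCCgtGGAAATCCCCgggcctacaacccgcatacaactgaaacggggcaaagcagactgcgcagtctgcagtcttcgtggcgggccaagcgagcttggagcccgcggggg
BIRC3: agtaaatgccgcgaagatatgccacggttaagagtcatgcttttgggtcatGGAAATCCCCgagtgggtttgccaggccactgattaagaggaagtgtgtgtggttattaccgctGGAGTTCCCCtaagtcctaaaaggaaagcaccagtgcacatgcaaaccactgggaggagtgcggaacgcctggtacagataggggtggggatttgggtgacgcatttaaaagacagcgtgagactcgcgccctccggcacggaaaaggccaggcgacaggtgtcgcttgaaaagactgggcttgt
NFKB2 (second of 3 starts): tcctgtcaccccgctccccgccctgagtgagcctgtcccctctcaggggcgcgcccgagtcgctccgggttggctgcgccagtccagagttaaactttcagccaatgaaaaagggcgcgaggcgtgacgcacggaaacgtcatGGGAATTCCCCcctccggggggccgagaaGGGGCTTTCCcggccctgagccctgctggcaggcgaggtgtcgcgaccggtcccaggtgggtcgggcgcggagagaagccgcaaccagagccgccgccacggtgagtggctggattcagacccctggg
TNFAIP2: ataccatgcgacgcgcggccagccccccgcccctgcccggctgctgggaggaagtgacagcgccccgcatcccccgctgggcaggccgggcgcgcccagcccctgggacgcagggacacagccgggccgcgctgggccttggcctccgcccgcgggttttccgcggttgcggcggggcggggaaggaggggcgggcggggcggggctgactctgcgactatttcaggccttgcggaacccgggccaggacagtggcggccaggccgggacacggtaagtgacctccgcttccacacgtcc
The NFKBIA match began 81 bases before the start. TNFAIP3 carried a pair of matches close together, beginning 67 and 55 bases before its start, and BIRC3 a pair at 199 and 135 bases. In the second NFKB2 window 2 overlapping matches began 107 and 106 bases before the start, and a separate one began 78 bases before it. Outside the printed windows, matches began 176 and 21 bases before the third NFKB2 start and 49 bases before the first NFKB1 start. No match was found in the windows of TNFAIP2, RELA, PTGS2 or ICAM1, which says only that no exact match to these letters is there. Near matches that differ by a letter, such as tggaaattcc in the ICAM1 window, were not counted.

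**Figure D1:**
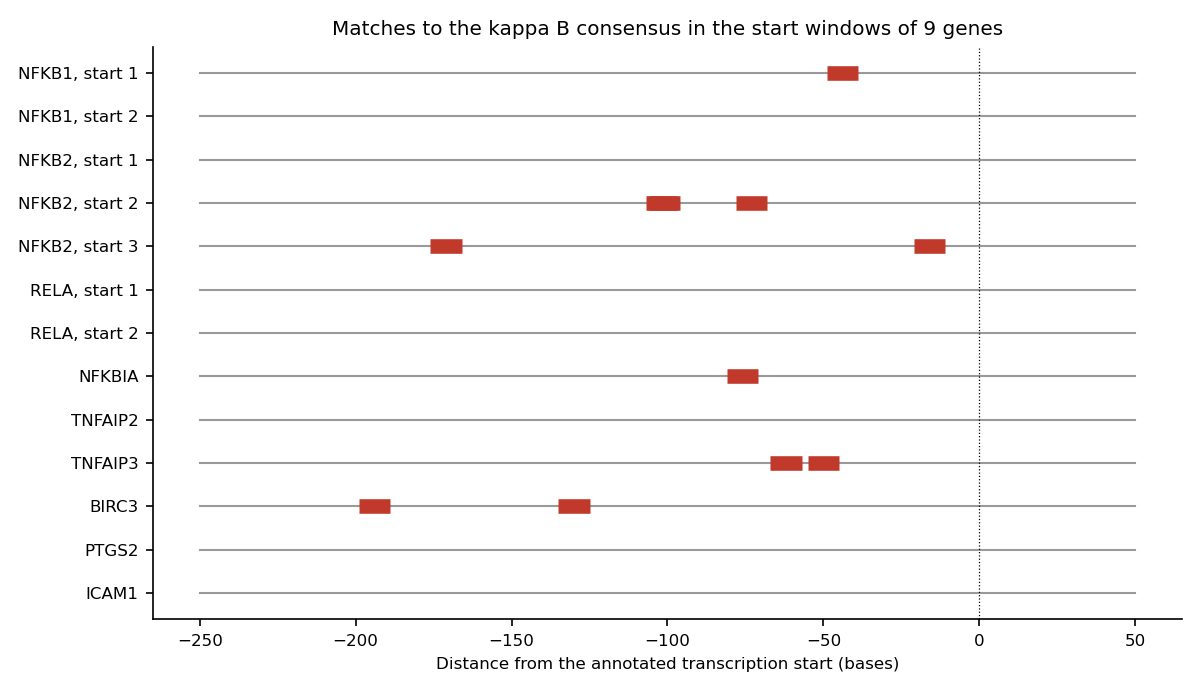
Positions of matches to the kappa B consensus (bars) in the 13 start windows of 9 genes, drawn as distance in bases from the annotated start (dotted line). The matches lie upstream of the start, in windows of NFKB1, NFKB2, NFKBIA, TNFAIP3 and BIRC3.

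Library sizes were 9485257 to 15476629 counts in L3.6 and 59671178 to 70789559 in PANC-1. KRT17 itself followed the labels, at 12.8 ± 0.805 CPM in the knockout and 99.2 ± 7.01 CPM in the wild type, and at 170.3 ± 14.9 CPM with K17 and 0.0109 ± 0.0189 CPM with the empty vector (SD, n = 3 each). Levels are in CPM (counts scaled to library size), with TMM factors over the 12 human libraries. The second PANC-1 empty vector library stood apart: 18.82% of its counts fell on genes of mitochondrial DNA, and 9.879% to 10.8% in the remaining 5 libraries of the line. Each fold change of the 10 genes within PANC-1 is therefore given with and without it. A gene's row may miss some of its reads. For example, CANX was counted 67 times in that library but at least 16969 times in each of the remaining PANC-1 ones, and for EEF2 all counts in L3.6 were between 32 and 53 while PANC-1 had 10960 or more. Levels are therefore not tested between lines, and are not compared between genes.

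Epithelial markers (6 of 6 in the files) summed to 3313 to 3642 CPM in the L3.6 knockout and 2770 to 3125 CPM in the L3.6 wild type. They summed to 1134 to 1191 CPM in PANC-1 with K17 and 1062 to 2177 CPM in PANC-1 with the empty vector. All 6 averaged at least 1 CPM in both L3.6 groups, 5 in PANC-1 with K17 and 4 with the empty vector. Of the immune markers CD3E was at 0 in all 12 libraries, and the list summed to 2.18 to 6.21 CPM in the L3.6 knockout and 4.85 to 5.22 CPM in its wild type, and to 39.9 to 48.4 CPM in PANC-1 with K17 and 41.4 to 64.8 CPM with the empty vector. The 5 endothelial markers summed to 3.34 to 4.06 CPM in the L3.6 knockout and 8.30 to 11.9 CPM in the wild type, where only PECAM1 averaged at least 1 CPM. The 6 fibroblast markers summed to 155.9 to 162.9 CPM in PANC-1 with K17 and 26.9 to 51.9 CPM with the empty vector, nearly all of it COL1A1, at 157 ± 3.91 CPM and 33.5 ± 14.6 CPM (SD, n = 3 each). In L3.6 the fibroblast list summed to 91.4 to 99.9 CPM in the knockout and 114 to 140.1 CPM in the wild type. The part of these lists in the results was not tested.

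In L3.6, the knockout cells had less transcript of the inhibitor gene NFKBIA and of the response genes TNFAIP2 and PTGS2 than the wild type, while none of the 4 subunit genes passed the test. The filter on low counts kept 9 of the 10 genes, and of these 3 were lower in the knockout and none higher at an adjusted p under 0.05. Over all 13891 genes tested, 9.61% passed in either direction and 3.51% were lower. At an unadjusted p under 0.05, 5 of the 9 were lower, as were 12.8% of all genes, and DESeq2 called 4, with 12.9% of the 12513 genes it tested. Their median log2 fold change, knockout over wild type, was −0.81, against −0.01 over all genes. In such bulk libraries, fewer cells with a transcript and less of it per cell cannot be told apart.

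NFKBIA encodes IkB-alpha, the inhibitor that retains NF-kB in the cytoplasm and is itself one of its targets. The gene lies at chr14:35401511-35404749 (GRCh38, minus strand), and its start window is printed above. It had 74.8, 77.6 and 81.3 CPM in the knockout libraries, against 141, 122 and 139 CPM in the wild type. All 3 knockout libraries lay below all 3 wild-type libraries. NFKBIA fell by 0.81 on the log2 scale in the knockout (standard error, SE, 0.068; adjusted p = 0.000358 by Benjamini-Hochberg after edgeR's quasi-likelihood test). It passed under each of the 13 alternatives to this fit.

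TNFAIP2, a cytoplasmic protein whose gene is induced by tumour necrosis factor, showed the largest change of the 10 in L3.6. The gene lies at chr14:103123442-103137439 on the plus strand. It had 16.0, 12.8 and 17.5 CPM in the knockout libraries, against 105, 90.6 and 119.6 CPM in the wild type. The groups were far apart, with the highest knockout library well below the lowest wild-type one. TNFAIP2 changed by a log2 fold change of −2.80 (SE 0.143), 6.95-fold lower in the knockout (edgeR adjusted p = 5.32e-05), and it too passed under each of the 13 alternatives.

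PTGS2 encodes the inducible cyclooxygenase, which makes prostaglandins (chr1:186671791-186680427, minus strand). Its counts were 22, 16 and 14 in the knockout, against 47, 43 and 30 in the wild type, or 1.47, 1.01 and 0.954 CPM against 2.59, 4.01 and 2.17 CPM. The groups did not overlap, at low counts. PTGS2 fell by 1.36 on the log2 scale (SE 0.355, edgeR adjusted p = 0.0496), close to the threshold. The call was lost when any library but wild-type replicate 1 was left out, with adjusted p between 0.0660 and 0.162 in edgeR.

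TNFAIP3 encodes A20, an enzyme that edits ubiquitin chains and shuts the pathway off. It had 3.08, 1.71 and 3.95 CPM in the knockout, against 4.63, 18.1 and 12.5 CPM in the wild type. Wild-type replicate 1 stood next to the knockout libraries, and the groups still did not overlap. Its log2 fold change of −2.02 (SE 0.527) did not pass (edgeR adjusted p = 0.0561), and without wild-type replicate 1 it was −2.41 and passed (adjusted p = 0.00632). DESeq2 called TNFAIP3 with all libraries, so it passed in 2 of its 13 alternatives.

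BIRC3 encodes cIAP2, a ubiquitin ligase of the tumour necrosis factor receptor complex that restrains cell death. It had 1.00, 0.824 and 1.09 CPM in the knockout, against 0.936, 2.704 and 2.75 CPM in the wild type. Here wild-type replicate 1 lay within the knockout range, so the groups overlapped. In log2 units the fold change was −1.13 (SE 0.461, edgeR adjusted p = 0.158), and −1.50 without that library (adjusted p = 0.0217). Wild-type replicate 1 also differed from the other wild-type libraries outside this pathway: the row AC010970.1 took 6.047% of its counts, against 13.54% and 14.14% in the other wild-type libraries and 4.335% to 6.962% in the knockout. The part of that difference in the TNFAIP3 and BIRC3 values was not tested.

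The subunit genes of L3.6 differed less. NFKB1, which encodes p105 and its product p50, had 66.7, 63.1 and 71.6 CPM in the knockout and 59.8, 57.8 and 62.2 CPM in the wild type. Each knockout library was above each wild-type one, by 0.14 on the log2 scale (SE 0.069, edgeR adjusted p = 0.235). RELA, the p65 subunit with a transactivation domain, had 10.4, 9.96 and 9.07 CPM in the knockout and 10.1, 6.90 and 7.30 CPM in the wild type (log2 fold change 0.24, edgeR adjusted p = 0.430). NFKB2, which encodes p100 and its product p52 of the non-canonical branch, had 5.96, 5.14 and 4.50 CPM in the knockout and 6.72, 7.46 and 5.35 CPM in the wild type (log2 fold change −0.35, edgeR adjusted p = 0.316). Both sets of values overlapped between the groups. RELB, the usual partner of p52, was uneven among the knockout libraries, with 14, 2 and 56 counts, against 19, 18 and 28 in the wild type. Its fold change of 0.01 on the log2 scale carried a standard error of 0.898 (edgeR adjusted p = 0.993), and its sign was kept in only 9 of 13 alternatives.

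ICAM1, an adhesion molecule that binds leukocyte integrins, was counted 4, 0 and 5 times in the knockout and 1, 0 and 9 times in the wild type. It did not pass the filter in L3.6, and a difference was not detectable at this depth.

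**Figure D2:**
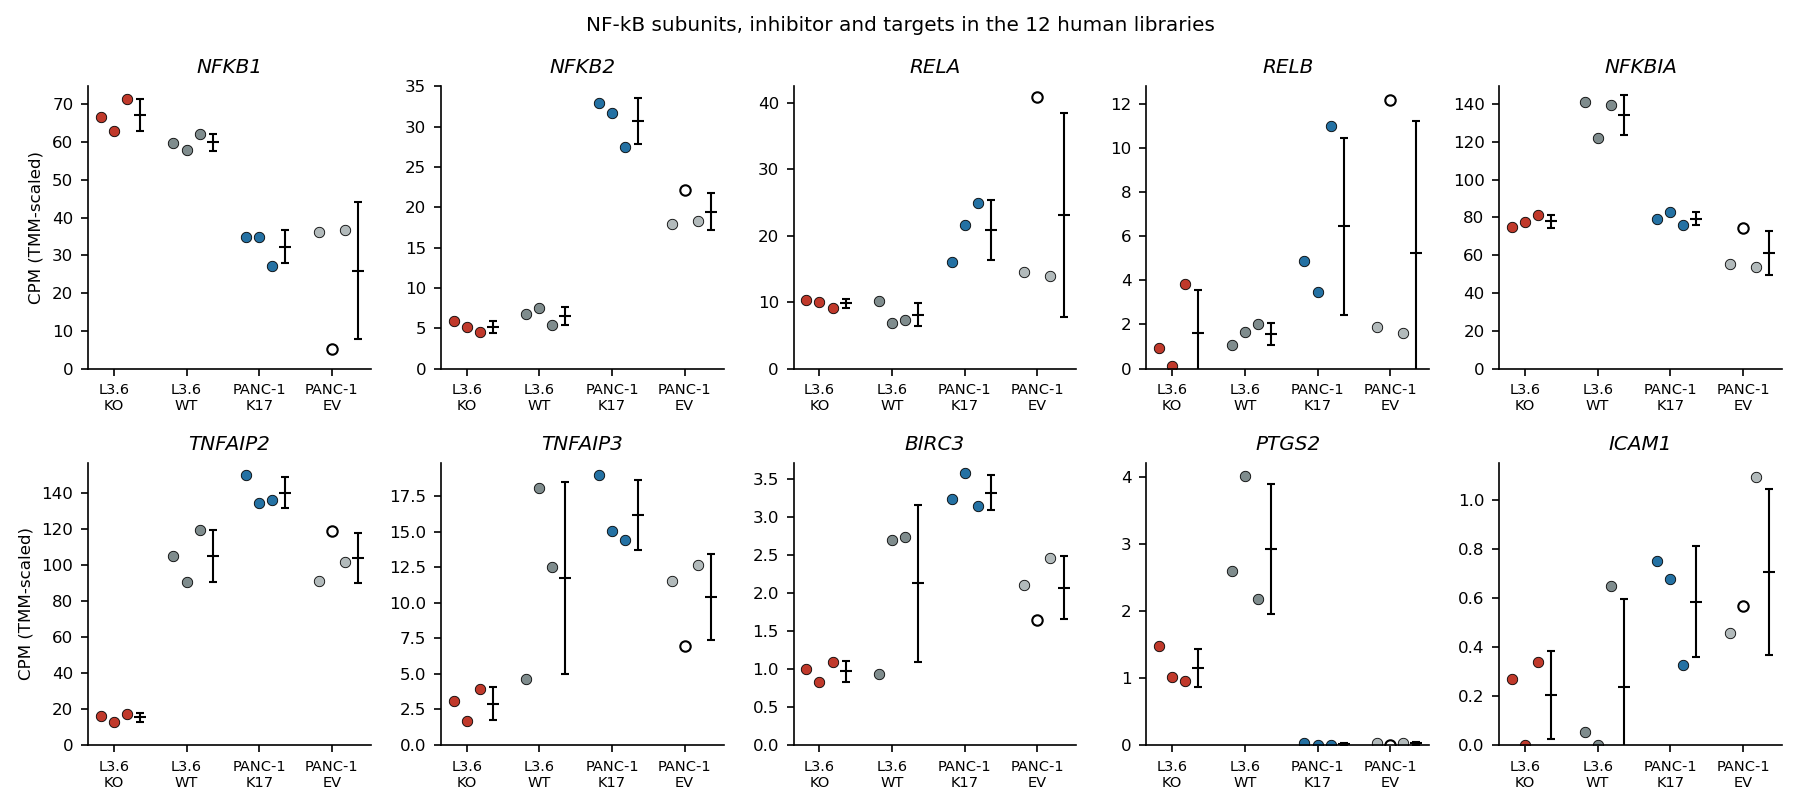
Levels of the 10 genes (CPM with TMM-scaled library sizes, linear axes from 0) in each library of the 4 human groups, with mean and SD beside each group. The open point is the second PANC-1 empty vector library, bars running below 0 are clipped, and NFKBIA and TNFAIP2 show knockout libraries below all wild-type libraries.

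In PANC-1, 5 of the 10 genes had every K17 library above every empty vector library (NFKB2, NFKBIA, TNFAIP2, TNFAIP3 and BIRC3), as did 12.2% of all genes tested, but none passed the test with all 6 libraries. Of the 9 genes tested, 0 passed with edgeR at an adjusted p under 0.05, where 0.644% of all 16295 genes did. At an unadjusted p under 0.05, 4 were higher, as were 6.47% of all genes, and DESeq2 called 1, NFKB2, with 2.76% of the 18515 genes it tested. Their median log2 fold change, K17 over empty vector, was 0.45, against 0.01 over all genes. Without empty vector replicate 2, 4 of the 9 rose (NFKB2, NFKBIA, TNFAIP2 and BIRC3) and none fell. In that fit 20.7% of 16640 genes passed in either direction and 11.4% were higher. At an unadjusted p under 0.05, 7 were higher, as were 17.2% of all genes, and DESeq2 called 6, with 28.0% of the 13907 genes it tested. The median was 0.55 against 0.01 over all genes.

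NFKB2 had 33.0, 31.7 and 27.5 CPM with K17, against 17.9, 22.1 and 18.4 CPM with the empty vector. The lowest K17 library was above the highest empty vector library. NFKB2 differed by 0.72 on the log2 scale (SE 0.136) over 6 libraries (edgeR adjusted p = 0.101) and 0.77 (SE 0.0875) without empty vector replicate 2 (adjusted p = 0.00120). Without that library NFKB2 passed under all 12 alternatives, as did NFKBIA and TNFAIP2.

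NFKBIA had 79.2, 82.8 and 76.1 CPM with K17, against 55.2, 74.3 and 53.6 CPM with the empty vector. Empty vector replicate 2 was the nearest to the K17 libraries, and the groups did not overlap. NFKBIA differed by 0.45 on the log2 scale (SE 0.138) with all libraries (edgeR adjusted p = 0.330), and 0.56 (SE 0.0444) without replicate 2 (adjusted p = 0.000285).

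TNFAIP2 had 150.2, 134 and 136 CPM with K17, against 91.3, 119 and 102 CPM with the empty vector. Again the highest empty vector value was that of replicate 2, and the groups did not overlap. TNFAIP2 differed by 0.50 on the log2 scale (SE 0.132, edgeR adjusted p = 0.236), and 0.55 (SE 0.0693) without replicate 2 (adjusted p = 0.00289).

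BIRC3 had 3.24, 3.59 and 3.15 CPM with K17, against 2.11, 1.65 and 2.47 CPM with the empty vector. The groups did not overlap, and here replicate 2 was the lowest empty vector library. BIRC3 differed by 0.73 on the log2 scale (SE 0.227, edgeR adjusted p = 0.342) and 0.55 (SE 0.156) without replicate 2 (adjusted p = 0.0479). This last call held only under the CPM filter (adjusted p = 0.0385 with edgeR) among its 12 alternatives. With any further library left out its adjusted p was 0.0863 to 0.233.

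TNFAIP3 had 19.0, 15.0 and 14.4 CPM with K17, against 11.5, 6.97 and 12.7 CPM with the empty vector. Each K17 library was higher. The log2 fold change did not pass, at 0.68 (SE 0.293, edgeR adjusted p = 0.528) and at 0.43 (SE 0.134) without replicate 2 (adjusted p = 0.0662). Without that library TNFAIP3 passed in 2 of its 12 alternatives, DESeq2 and the fit with no filter.

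For 3 subunit genes empty vector replicate 2 lay far from the rest of its group. NFKB1 had 34.8, 34.8 and 27.2 CPM with K17, against 36.3, 5.05 and 36.6 CPM with the empty vector. Its log2 fold change was 0.34 with all libraries and −0.16 without replicate 2, and neither passed (edgeR adjusted p = 0.877 and 0.371). RELA had 16.1, 21.6 and 24.9 CPM with K17, against 14.5, 40.8 and 13.9 CPM with the empty vector. Its log2 fold change was −0.05 (SE 0.434) with all libraries and 0.57 (SE 0.185) without replicate 2 (edgeR adjusted p = 0.971 and 0.0877). With K17 replicate 1 left out as well, RELA passed (edgeR adjusted p = 0.00532). In RELA, then, replicate 2 was the highest PANC-1 library, in NFKB1 the lowest.

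RELB had 4.90, 3.47 and 11.0 CPM with K17, against 1.90, 12.2 and 1.60 CPM with the empty vector. Its log2 fold change was 0.43 (SE 0.866) with all libraries, and 1.90 (SE 0.570) without empty vector replicate 2 (edgeR adjusted p = 0.872 and 0.0807). The K17 libraries were also uneven, replicate 3 being the highest. Without that library as well, the log2 fold change was 1.27 and passed (edgeR adjusted p = 0.0171), and without K17 replicate 2 the adjusted p was 0.0356.

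PTGS2 was at or under the floor of 3 counts in every PANC-1 library, with 2, 0 and 0 counts with K17 and 2, 0 and 2 with the empty vector, so no fold is given. A count of 3 corresponds to 0.0490 to 0.0566 CPM in PANC-1, a limit of counting error only. ICAM1 was low, at 41, 36 and 18 counts with K17 and 28, 31 and 62 with the empty vector. The ICAM1 groups overlapped, and its log2 fold change of −0.22 (SE 0.480) did not pass (edgeR adjusted p = 0.879), or −0.39 and 0.489 without replicate 2 (adjusted p = 0.653).

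**Figure D3:**
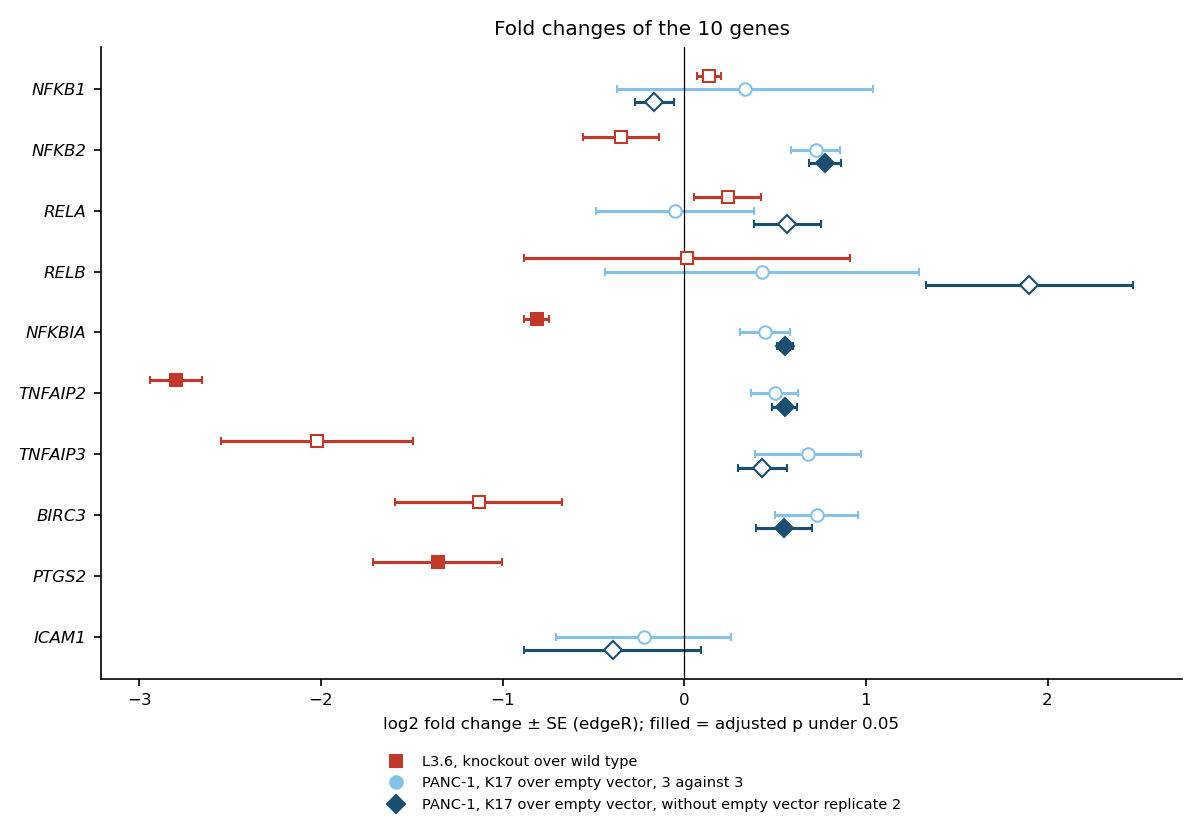
Log2 fold changes of the 10 genes with their standard errors, in L3.6 (knockout over wild type) and in PANC-1 (K17 over empty vector), with all libraries and without empty vector replicate 2, filled where the adjusted p was under 0.05. TNFAIP2 at −2.80 in L3.6 is the largest change, and removing the empty vector library narrows the errors in PANC-1 for each gene but ICAM1.

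The unusual empty vector library was set against base composition, taking the mean GC content of each gene's annotated transcripts. The log2 ratio of replicate 2 over the mean of replicates 1 and 3 was −2.83 for NFKB1 (GC content 49.3%), 2.73 for RELB (64.5%) and 1.52 for RELA (61.3%). For TNFAIP3, BIRC3 and ICAM1 it was −0.78, −0.45 and −0.39, and for NFKBIA, TNFAIP2 and NFKB2 0.45, 0.30 and 0.29. The response genes and NFKB2 thus moved less than 2-fold in that library, and the other 3 subunit genes moved more. Across 16278 genes, which are not independent replicates and share these libraries, the ratio and GC content had a Spearman rho of 0.42. With genes cut into 5 equal bins by GC content, the median ratio was −0.46, −0.20, 0.04, 0.38 and 0.70 from the lowest bin to the highest, and 28.5% of genes differed at least 2-fold. Removing that library changed the sign of rho between GC content and the PANC-1 fold change, which was −0.20 with all libraries and 0.11 without it, and it was 0.12 in L3.6. The part of GC content in the fold changes of the 10 genes was not tested.

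**Figure D4:**
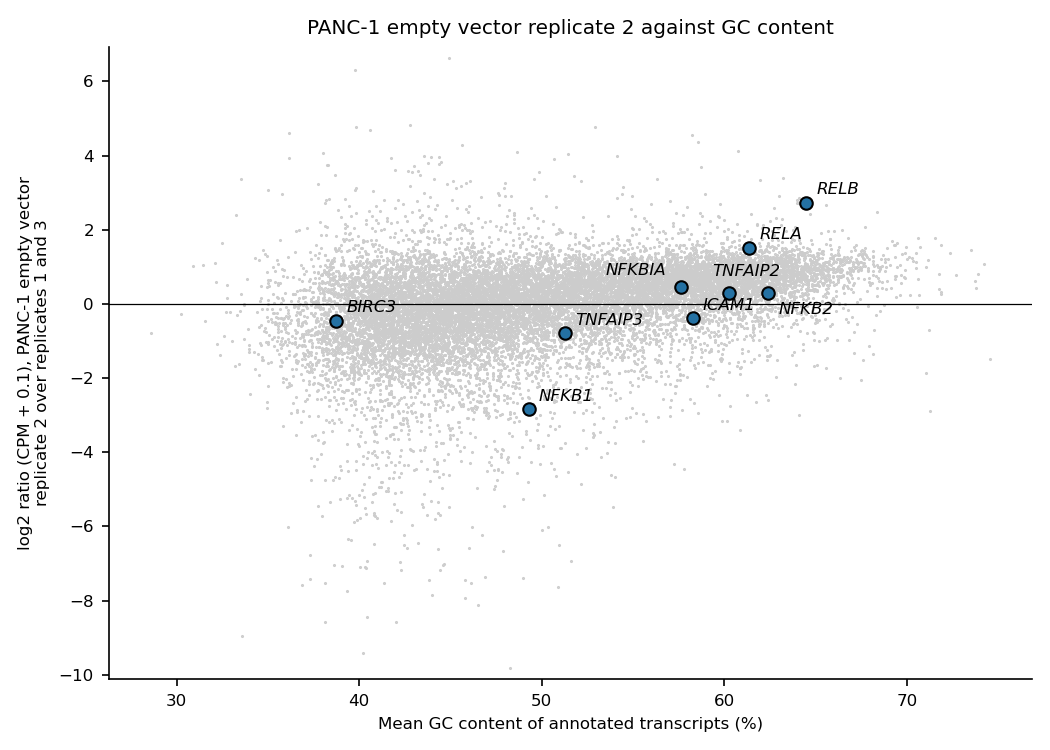
Log2 ratio (CPM + 0.1) of PANC-1 empty vector replicate 2 over the mean of replicates 1 and 3, against mean transcript GC content in percent, for 16278 genes (grey) and the 9 tested genes (blue). RELB at 2.73 and NFKB1 at −2.83 lie at opposite ends among the 9.

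Both lines were then compared in 1 fit, in which the effect of more K17 (K17 over empty vector in PANC-1, wild type over knockout in L3.6) was taken as PANC-1 minus L3.6. Of the 10 genes, 1 passed, TNFAIP2, where 1.54% of 17583 genes passed. Without empty vector replicate 2 it was again the only 1 of the 10, where 1819 of 15758 genes passed. Its difference was −2.34 on the log2 scale (SE 0.219, edgeR adjusted p = 0.000310): TNFAIP2 was higher in the K17-high cells of both lines by the group means, and by more in L3.6. It passed in each of the 18 alternatives, and without empty vector replicate 2 the difference was −2.17. NFKBIA differed by −0.41 (SE 0.189, edgeR adjusted p = 0.352), and by −0.18 without that library. TNFAIP3 differed by −1.37 (SE 0.629, edgeR adjusted p = 0.348). NFKB2 had log2 fold changes of 0.72 in PANC-1 with all libraries and, in the other line, −0.35 for knockout over wild type. The difference of its effects over the 12 libraries was 0.34 (SE 0.247, edgeR adjusted p = 0.566). Thus a difference between the comparisons in the lines was shown for TNFAIP2 alone of the 10, and the others had standard errors from 0.189 upward. The lines also differed in the manipulation, a knockout in L3.6 and over-expression in PANC-1, in the KRT17 levels compared and in library size. These cannot be told apart from the line, here or in the differences between lines given below. DESeq2 called 1 of the 10, with 4.86% of 15404 genes, and 1 had an unadjusted p under 0.05, with 14.7% of all genes.

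Ordered by group mean, TNFAIP2, TNFAIP3 and BIRC3 were highest in PANC-1 with K17 and lowest in the L3.6 knockout. Between these lay the L3.6 wild type and, below it, PANC-1 with the empty vector, and without empty vector replicate 2 these changed places for TNFAIP3 and BIRC3. TNFAIP2 averaged 140.3 ± 8.58 CPM in PANC-1 with K17 and 104 ± 14.1 CPM with the empty vector, and 15.4 ± 2.40 CPM in the L3.6 knockout and 105 ± 14.5 CPM in the wild type (SD, n = 3 each). For TNFAIP2 and BIRC3 the 2 groups in the middle overlapped, and for BIRC3 the L3.6 wild type also overlapped with the knockout. For TNFAIP3 the L3.6 wild type overlapped with both PANC-1 groups. NFKBIA averaged 77.9 ± 3.29 CPM in the L3.6 knockout and 134 ± 10.5 CPM in the wild type, its highest group, and 79.3 ± 3.35 CPM in PANC-1 with K17 and 61.0 ± 11.5 CPM with the empty vector, its lowest. The L3.6 knockout and PANC-1 with K17 overlapped there. Among the subunit genes NFKB1 was higher in both L3.6 groups, at 67.1 ± 4.25 CPM in the knockout and 59.9 ± 2.18 CPM in the wild type, than in PANC-1 with K17 at 32.3 ± 4.36 CPM or with the empty vector at 26.0 ± 18.1 CPM. NFKB2 had the opposite order of lines, with 30.7 ± 2.88 CPM and 19.5 ± 2.33 CPM in PANC-1 with K17 and the empty vector, and 5.20 ± 0.731 CPM and 6.51 ± 1.07 CPM in L3.6 knockout and wild type. RELA was higher by its means in both PANC-1 groups than in L3.6, with or without empty vector replicate 2. RELB averaged 5.23 CPM with the empty vector but 1.75 CPM without that library, and the empty vector and L3.6 knockout groups overlapped in both cases. PTGS2 was seen above its floor in L3.6 alone, and ICAM1 was under 1.1 CPM in every library. These orders between lines carry no test.

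Genes whose levels followed NFKBIA most closely were sought among 9580 genes with a mean of at least 5 CPM, over 11 libraries (all but empty vector replicate 2) after centring each line on its mean. The 5 closest were SPRY4 (Pearson r = 0.985), GDF15 (0.983), MYO1E (0.981), USP36 (0.977) and GPRC5A (0.977). The libraries of a group share their condition, so the 11 points are not independent.

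Around the 10 genes, 109 other genes of the pathway were listed by role, of which 104 were analysed. In L3.6, 6 of the 73 that passed the filter rose and 4 fell in the knockout, or 10 of 73 against the 9.61% of all genes given above. In PANC-1 with all libraries 2 of 89 rose and none fell with edgeR, where 0.644% of all genes passed. DESeq2 called 3 higher and 2 lower there, with 2.76% of the genes it tested. Without empty vector replicate 2, 24 of 90 rose and 9 fell, where 20.7% of all genes passed. By direction, 6.1% of all genes rose and 3.51% fell in L3.6. In PANC-1 without replicate 2, 11.4% rose and 9.25% fell. The same shares apply to each list below. The median log2 fold change over the lists was −0.05 in L3.6, 0.14 in PANC-1 with all libraries and 0.12 without replicate 2. Changes of single genes below are on the log2 scale, and of those named in PANC-1 CCL2 and BCL2L1 alone also passed in edgeR with all libraries.

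Of 6 other subunit and IkB genes, NFKBIZ, a nuclear IkB protein that assists transcription of selected targets, fell in the L3.6 knockout and rose with K17 in PANC-1 without empty vector replicate 2. It had 17.3, 12.4 and 14.1 CPM in the L3.6 knockout, against 26.4, 31.1 and 29.9 CPM in the wild type (log2 fold change −1.02, edgeR adjusted p = 0.00436). It had 29.8, 30.9 and 29.9 CPM in PANC-1 with K17, against 24.9, 11.9 and 22.3 CPM with the empty vector (log2 fold change 0.37 without replicate 2, edgeR adjusted p = 0.00754, and 0.66 with all libraries, adjusted p = 0.565). In neither line did its groups overlap. NFKBIE, which encodes IkB-epsilon, rose by 0.64 with K17 in PANC-1 without replicate 2 and REL, the c-Rel subunit, fell by 0.18 there (edgeR adjusted p = 0.00475 and 0.0490). With all libraries their log2 fold changes were 0.32 and, with the opposite sign, 0.11, and neither passed.

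Of 27 kinases and adaptors, 3 rose and none fell in the L3.6 knockout, where 6.1% of all genes rose and 3.51% fell. TRADD, the adaptor of tumour necrosis factor receptor 1, had 3.68, 4.57 and 2.93 CPM in the knockout, against 1.82, 1.59 and 1.37 CPM in the wild type (log2 fold change 1.19, edgeR adjusted p = 0.0353). IKBKG, the regulatory subunit of the IkB kinase complex, rose by 0.54 (edgeR adjusted p = 0.0244), and it has a near-identical pseudogene that could share its reads. BIRC2, the gene of cIAP1, rose by 0.21 (edgeR adjusted p = 0.0393). In PANC-1 without replicate 2, 2 rose and 2 fell: the kinase gene MAP3K7 fell by 0.48 and its binding partner TAB2 by 0.34, while BIRC2 and IRAK1 rose by 0.17 and 0.12. With all libraries these 4 did not pass, and their log2 fold changes were −0.25, −0.05, 0.44 and, with its sign turned, −0.35.

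Among the receptors IL18R1, a chain of the interleukin-18 receptor, had 91.8, 101 and 93.4 CPM in the L3.6 knockout, against 216, 189.7 and 215 CPM in the wild type. All knockout libraries were lower, with a log2 fold change of −1.14 (edgeR adjusted p = 6.61e-05). TNFRSF12A, the receptor of the cytokine TWEAK, rose by 0.78 in the knockout (edgeR adjusted p = 0.00604), and these were the calls among 13 receptors tested in L3.6. In PANC-1 without replicate 2, 7 of 16 rose and none fell, where 11.4% of all genes rose and 9.25% fell. Among the 7 were TNFRSF9 (0.82), the interleukin-1 receptor chain IL1RAP (0.78), the death receptor gene FAS (0.61), TNFRSF12A (0.53) and TNFRSF1A, tumour necrosis factor receptor 1 (0.52). With all libraries 0 of 15 receptors passed with edgeR and with DESeq2, and 4 were higher at an unadjusted p under 0.05, where 6.47% of all genes were. Of 8 ligands in PANC-1, LTB (lymphotoxin beta) and IL18 rose without replicate 2, by 2.15 and 0.51. With all libraries, at 2.05 and 0.50, they did not pass with edgeR, and DESeq2 called 1 ligand higher. LTB was low, at 0.494, 0.981 and 0.870 CPM with K17 and 0.261, 0.239 and 0.0882 CPM with the empty vector. In L3.6 IL18 was higher in the knockout, by 0.63 without overlap, and did not pass (edgeR adjusted p = 0.0607). The difference of its effects between lines, over all 12 libraries, was 1.09 (edgeR adjusted p = 0.0422). None of the 3 ligands tested in L3.6 passed with edgeR, while DESeq2 called 2 ligands higher in the knockout.

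Of the other feedback regulators tested, none changed by as much as 2-fold. In the L3.6 knockout, TRAF3IP2, an adaptor of interleukin-17 signalling, rose by 0.86 and the deubiquitinase gene CYLD by 0.37 (edgeR adjusted p = 0.00173 and 0.00722), and none of the 10 tested fell. In PANC-1 without replicate 2, 3 rose and 4 fell, all by less than 0.4: TNIP1, a partner of A20, by 0.35 and CYLD by 0.25 upward, while TAX1BP1, OTULIN and N4BP1 fell by 0.23, 0.20 and 0.18. With all libraries these 5 did not pass, and OTULIN and N4BP1 had the opposite sign, at 0.09 and 0.18.

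The chemokine genes CXCL1 and CXCL3 fell the most in the L3.6 knockout among the other targets tested. CXCL1, which attracts neutrophils, had 1.54, 1.97 and 1.91 CPM in the L3.6 knockout, against 12.2, 15.4 and 14.6 CPM in the wild type (log2 fold change −2.98, edgeR adjusted p = 9.06e-05). In PANC-1 it had 21.2, 23.5 and 19.3 CPM with K17, against 41.3, 57.3 and 40.6 CPM with the empty vector (log2 fold change −0.93 without replicate 2, edgeR adjusted p = 0.000449, and −1.05 with all libraries, adjusted p = 0.0584). K17-high cells thus had more CXCL1 in L3.6 and less in PANC-1, without overlap in either line. Over all 12 libraries the difference of the effects was −4.08 (SE 0.264, edgeR adjusted p = 2.47e-05). CXCL3 had 1.34, 1.97 and 1.16 CPM in the L3.6 knockout, against 8.70, 8.39 and 8.60 CPM in the wild type, and was under 0.4 CPM in PANC-1. It fell by 2.54 in the knockout (edgeR adjusted p = 0.000686). CXCL1 and CXCL3 are close in sequence, so the split of reads between them is uncertain. These were the 2 called genes among 14 other targets tested in L3.6.

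In PANC-1 with all libraries 2 of 23 other targets passed with edgeR, both higher with K17. DESeq2 called 2 of the list higher and 2 lower there. CCL2, a chemokine for monocytes, had 224, 224 and 226 CPM with K17, against 72.8, 89.0 and 67.4 CPM with the empty vector (log2 fold change 1.62, edgeR adjusted p = 0.0152). BCL2L1, the gene of the survival protein BCL-X, had 157, 155 and 149 CPM with K17, against 65.7, 68.5 and 59.5 CPM with the empty vector (log2 fold change 1.31, edgeR adjusted p = 0.0183). Both were far outside the range of the empty vector libraries, replicate 2 included. Both calls were lost when a K17 library or empty vector replicate 3 was left out and with the replicate block, where no gene of the whole table passed with edgeR. Without empty vector replicate 1 a single gene of the table passed, so at least 1 of them was lost there too. Without replicate 2, 8 rose and 2 fell, among them LIF, an interleukin-6 family cytokine, by 1.28 upward and MMP9, a matrix metalloproteinase, which fell by 2.17 at under 1.1 CPM in every PANC-1 library. With all libraries LIF and MMP9 did not pass with edgeR, at 1.73 and −2.27. In L3.6 the groups overlapped for BCL2L1, at 121, 121 and 137 CPM in the knockout and 121, 116 and 121 CPM in the wild type, and the difference of its effects between lines was 1.33 (edgeR adjusted p = 0.000698).

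**Figure D5:**
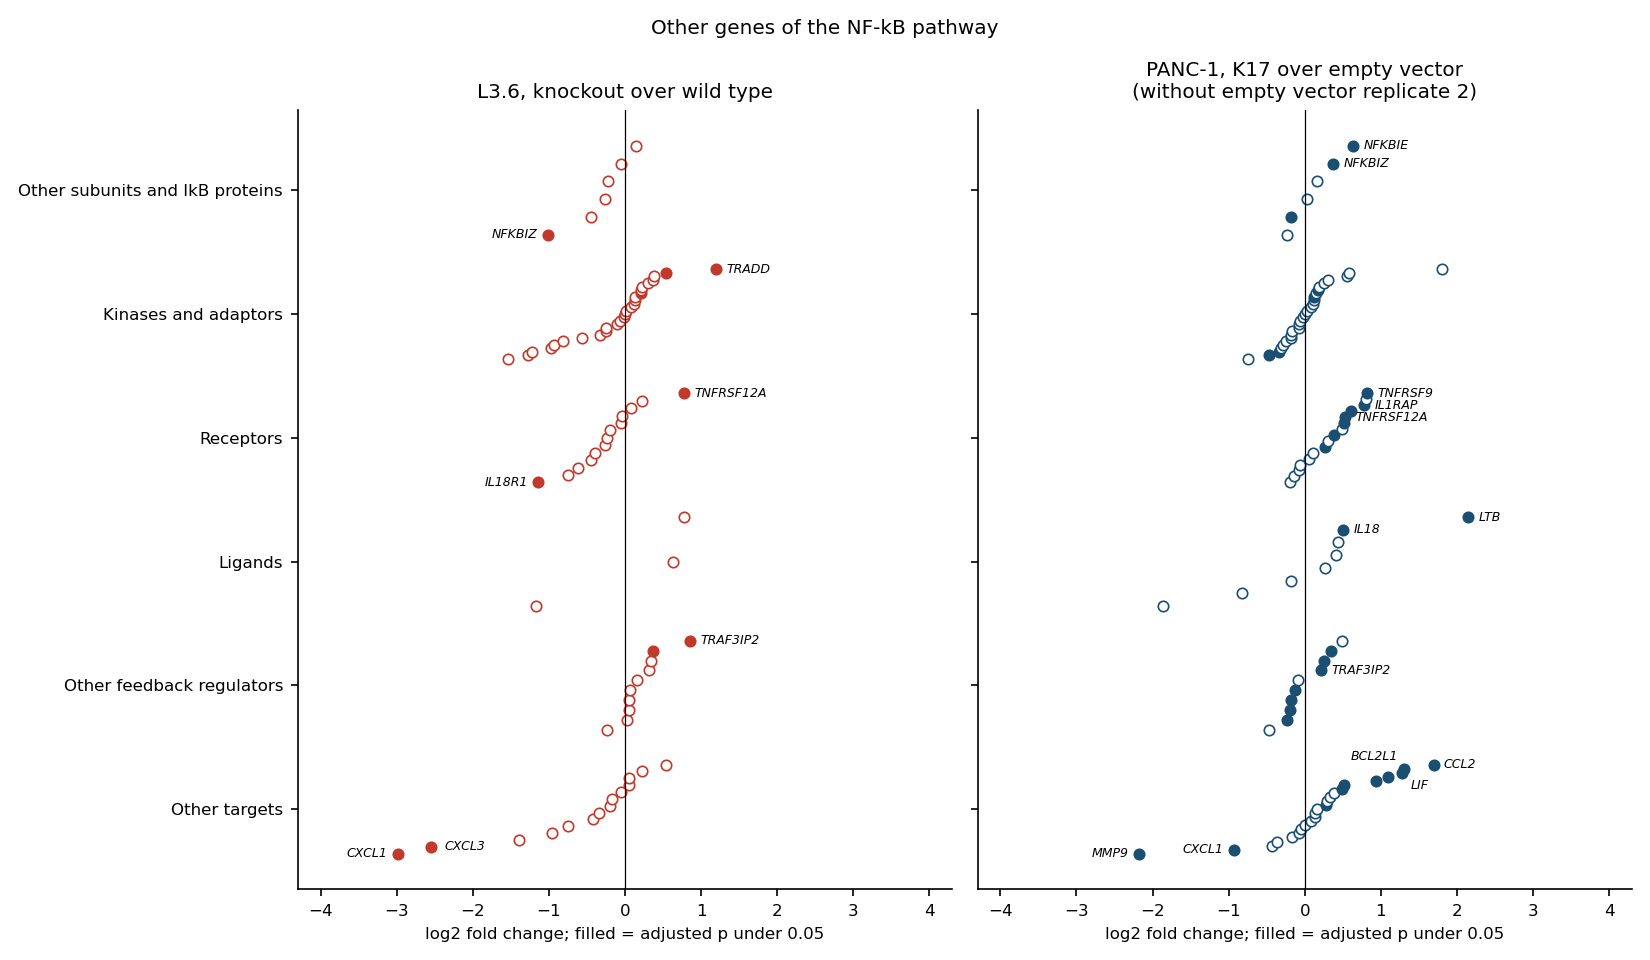
Log2 fold changes of the tested genes of 6 pathway lists in L3.6 (knockout over wild type) and in PANC-1 (K17 over empty vector, without empty vector replicate 2), with genes that passed the test filled and some named. Within a list the height is only spacing by rank, and CXCL1 and CXCL3 lie lowest in L3.6 while LTB and CCL2 lie highest among the filled genes in PANC-1.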

How the data were processed

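TRIzol was used to extract total RNA, and an Illumina TruSeq RNA kit to prepare libraries, according to the protocols in the labels. What the authors deposited are counts per gene, as whole numbers and without normalization, and the tests ran on them directly. Tools named in the submitters' processing notes are kallisto 0.46.2, STAR 2.7.3a and bcl2fastq 1.8.4. The strand setting, annotation release and counting step are not given in the sources used. RELA, TNFAIP3 and ICAM1 overlap antisense or lincRNA genes of GENCODE 29, and such reads cannot be told apart from theirs. Of 34505 identifiers, 34349 were named by a symbol table.

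Each comparison was fitted over all genes kept with edgeR 4.0.16 in R 4.3.3 (quasi-likelihood with robust spread, TMM, filterByExpr), with Benjamini-Hochberg adjustment and a threshold of 0.05. The alternatives used DESeq2 1.42.0, other scalings and filters, a replicate block and libraries left out. The script was tested on simulated data. The 10 genes, the pathway lists and the rule for named genes (those past the test in either line, up to 6 per list by fold change) were chosen with earlier results of these data known.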

Additional observations from a re-analysis of the deposited data

Results flagged for a closer look

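The effect of more K17 on TNFAIP2 differed between the lines by −2.34 on the log2 scale, PANC-1 minus L3.6, with a standard error of 0.219 in edgeR's interaction test over 12 libraries (adjusted p = 0.000310). In PANC-1 the log2 fold change, K17 over empty vector, was 0.50 and did not pass with all libraries. In L3.6 the knockout was lower by a log2 fold change of −2.80. Line and manipulation, knockout or over-expression, change together here and cannot be told apart.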

How the results depend on the processing

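In L3.6, 3 genes were called. Leaving out 1 library gave 2 to 5, the 5 without wild-type replicate 1, and NFKBIA and TNFAIP2 passed in every one of the 13 alternatives. PTGS2 passed in 6 of 13, and its adjusted p was 0.117 with the replicate block and 0.242 in 1 fit of the 4 human groups. In PANC-1, 0 genes were called. DESeq2 called 1, and leaving out 1 library gave 0 to 4, the 4 without empty vector replicate 2. Without that library 4 were called, and 3 to 6 over the alternatives. No called gene changed direction, while RELB in L3.6 and NFKB1, RELA, RELB and ICAM1 in PANC-1 with all libraries did not keep their sign. Upper-quartile factors changed the split of all calls in L3.6 to 706 higher and 639 lower, against 847 and 488, and in PANC-1 without empty vector replicate 2 to 1549 and 2193, against 1902 and 1540. Correlations of same-numbered deviations were −0.10 to 0.03 in L3.6 and 0.02 to 0.09 in PANC-1. Those of differently numbered ones were −0.08 to 0.11 and −0.08 to 0.06. With so few libraries, and with empty vector replicate 2 among them, these values cannot decide whether replicate numbers pair the libraries. With the replicate block, 2 genes were called in L3.6, 0 in PANC-1 and 3 in PANC-1 without empty vector replicate 2, and over all genes 665 were called against 1335 in L3.6, 0 against 105 in PANC-1 and 2252 against 3442 without that library. Over all genes, the 4-group fit gave 204 calls in L3.6, 363 in PANC-1 and 1239 without empty vector replicate 2. DESeq2 gave 511 in PANC-1. Leaving out 1 library gave 574 to 2493 in L3.6, 0 to 3442 in PANC-1 and 2053 to 2837 in PANC-1 without empty vector replicate 2. For the difference between lines 270 genes were called, against 70 with the block, 749 with DESeq2 and 138 to 1819 with 1 library left out. Low counts limit RELB, BIRC3, PTGS2 and ICAM1 in L3.6 and PTGS2 in PANC-1. The cause of these changes was not tested.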
